A study of Mus musculus with 6 samples.

Results

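The genes described here encode potassium channel subunits and the proteins that bind them, measured at e12.5 in mouse motor neurons of the cervical and of the thoracic spinal cord. The members are the genes whose symbol consists of Kcn, 1 of 20 family letters and a number. There are 92 of them among the 56805 genes of the deposited count table, and the rule reads symbols, not measured values. Ribosomal RNA-depleted total RNA was sequenced in 3 cervical and 3 thoracic libraries, all from embryos of control genotype that received no treatment. The labels give the region, the cell type (motor neuron) and a replicate number. The series text calls the replicates biological. Whether each is an embryo, a litter or pooled tissue, and how the cells were isolated, is not stated, and the p-values below speak only of the variation among these libraries. Library totals ran from 32103071 to 53186131 counts, the highest being thoracic replicate 1.

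Potassium channels set the resting potential of a neuron, end its action potentials and shape its firing pattern. A voltage-gated (Kv) channel is a tetramer of pore subunits. Silent subunits join such tetramers without forming channels of their own, and beta subunits, KChIPs and MinK proteins bind the pore subunits and alter their gating or surface delivery. Inward rectifiers and two-pore leak channels work without the classical voltage sensor, and calcium- or sodium-activated channels follow activity through the ions that it brings in. In motor neurons the M current of Kv7 channels, the afterhyperpolarisation carried by small-conductance (SK) channels and the clustered Kv2 channels of the soma are well known regulators of repetitive firing.

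The labelled cell type was checked against 10 motor neuron genes. All 10 passed the low-count filter, and their levels summed to 808, 396 and 541 CPM in cervical replicates 1 to 3, beside 771, 517 and 700.0 CPM in thoracic replicates 1 to 3 (CPM are counts scaled to library size, with TMM factors). Inhibitory interneuron genes such as Pax2 and Slc6a5 summed to 1722 to 1896 CPM in cervical and 1421 to 1491 CPM in thoracic libraries. Neither sum is scaled for gene length, so the lists are not ranked. Pax2 alone had 526 to 573 CPM in cervical and 422 to 450 CPM in thoracic libraries. In edgeR's test with the replicate number as a block, 3 of the 10 motor neuron genes (Isl1, Ret and Slc18a3) and 3 of 10 neural progenitor genes (Nes, Vim and Mki67) were called higher in thoracic libraries (adjusted p under 0.05). That is the direction of the members called with the block, and their part in those calls was not tested. Without the block none of these genes was called by edgeR. Genes of other neural cells were thus abundant, and a channel gene cannot be assigned to motor neurons from these counts. In bulk samples, fewer cells of a type and less RNA per cell cannot be told apart.

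Several abundant pore subunits had levels that differed little between the regions. Levels of different genes are compared here as TMM-scaled CPM per kb of exonic length. Kcnh2, the ERG channel that repolarises excitable cells, stood at 21.4 ± 1.99 CPM per kb in cervical and 22.7 ± 1.30 CPM per kb in thoracic libraries (SD, n = 3 each, as for all such values). Kcnn1, an SK channel subunit, followed at 14.5 ± 2.90 and 14.6 ± 1.85 CPM per kb in cervical and thoracic libraries. Kcnh2 and Kcnn1 lay further apart than their SDs in both regions.

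Kcnd2, Kcnc1, Kcnk10 and Kcnd3 came below them and close together, with means over the 6 libraries of 11.4, 10.1, 9.39 and 8.85 CPM per kb. Kcnd2 and Kcnd3 form the transient A-type Kv4 channels, Kcnc1 forms fast Kv3 channels that allow rapid firing, and Kcnk10 is a two-pore leak channel. In thoracic libraries the levels per kb of neighbours among these 4 lay less than the sum of their SDs apart. In cervical libraries Kcnd2 (12.1 ± 0.512 CPM per kb) lay above Kcnc1 and Kcnc1 (10.5 ± 0.748 CPM per kb) lay above Kcnk10 (9.01 ± 0.163 CPM per kb) by more than their SDs.

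**Figure D1:**
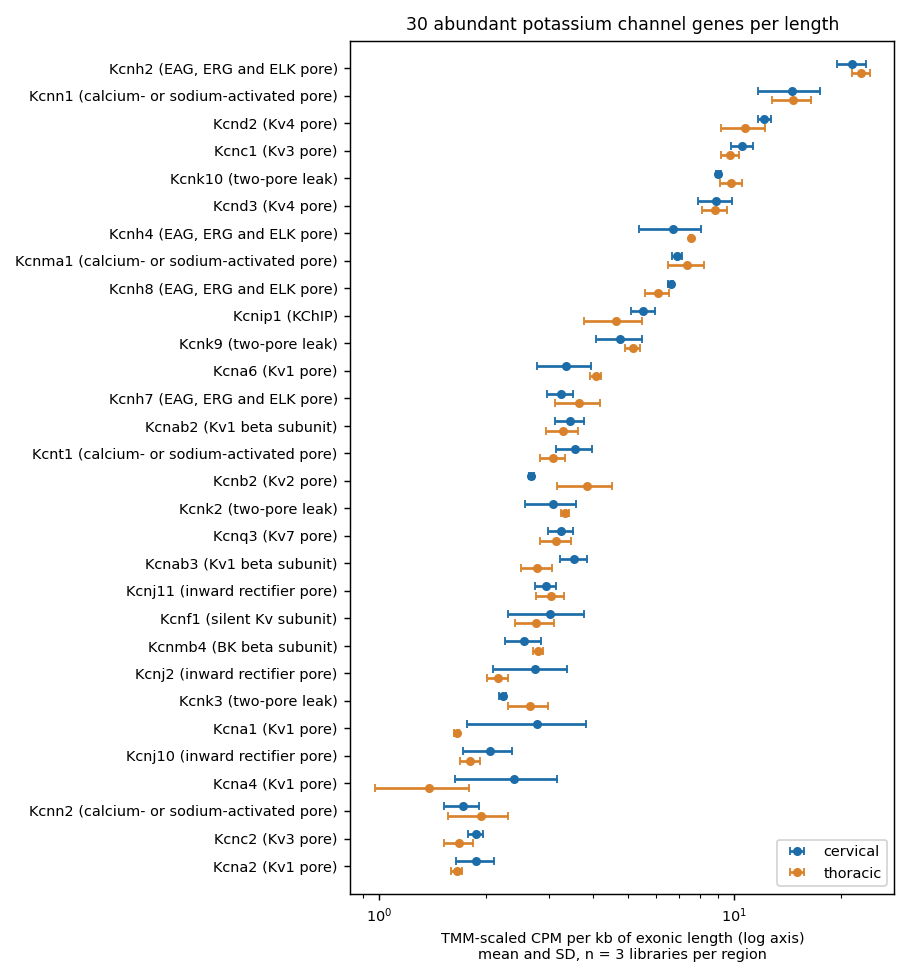
TMM-scaled CPM per kb of exonic length (log axis) of 30 abundant members, as mean and SD over 3 cervical (blue) and 3 thoracic (orange) libraries. Kcnh2 and Kcnn1 lie furthest right of these 30 in both regions, and Kcnb2 lies further right in thoracic libraries.

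Of the 92 members, 74 passed the low-count filter and were tested. The 18 others had a mean of at most 0.306 CPM, and they included all 4 MinK family genes (Kcne1 to Kcne4), 5 two-pore leak genes and 4 inward rectifier genes. Kcne3 and Kcnk16 had a count of 0 in every library, where the 3 counts that a zero allows correspond to 0.0564 to 0.0934 CPM. Kcnq1, a tested Kv7 gene, shares 121 exonic bases with the abundant antisense RNA Kcnq1ot1 and is uncertain for that reason, since no strand setting of the counting is known here. Kcnt2, Kcna6, Kcnk3, Kcnn1 and Kcnmb4 also share exonic bases with antisense genes, from 102 for Kcnt2 to 2355 for Kcna6. So do Kcnma1 (1016 bases), Kcnd3 (165) and Kcnab3 (147), and the partner genes Abcc9 and Lrrc55 described below.

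The regions differed in a small number of auxiliary subunits, and the members called were lower in cervical than in thoracic libraries. In edgeR's quasi-likelihood test, Kcnab1 and Kcnip4 had an adjusted p (Benjamini-Hochberg, over all 21972 genes tested) under 0.05. Called, with no other tool named, refers to this test and threshold. That is 2.7% of the 74 tested members, where 0.35% of all tested genes were called higher in thoracic libraries. No member was called higher in cervical libraries, where 0.191% of all tested genes were. Taking the unadjusted p below 0.05, there were 5 members higher in cervical libraries and 9 in thoracic ones, where 3.27% and 5.19% of all tested genes were. DESeq2 called 3 members higher in cervical libraries and 6 in thoracic ones, where it called 0.573% and 1.28% of all tested genes. For limma-voom these were 0 and 2 members, and 0.2% and 0.287% of all tested genes. Over the tested members the median log2 fold change (cervical minus thoracic) was -0.04, against 0.0083 for all tested genes, and 34 members lay above 0 and 40 below.

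The replicate numbers are shared by the regions, and libraries with the same number had weakly correlated deviations from their region means (0.160 to 0.195). With the replicate number as a block, 7 members were called lower in cervical than in thoracic libraries, which is 9.46% of the tested members, where 1.39% of all tested genes were called in that direction. All 7 were in that direction, and 0.573% of all tested genes were called higher in cervical libraries. They included Kcnab1, Kcnip4, Kcna5, Kcnb2, Kcnt2 and Kcnn3.

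**Figure D2:**
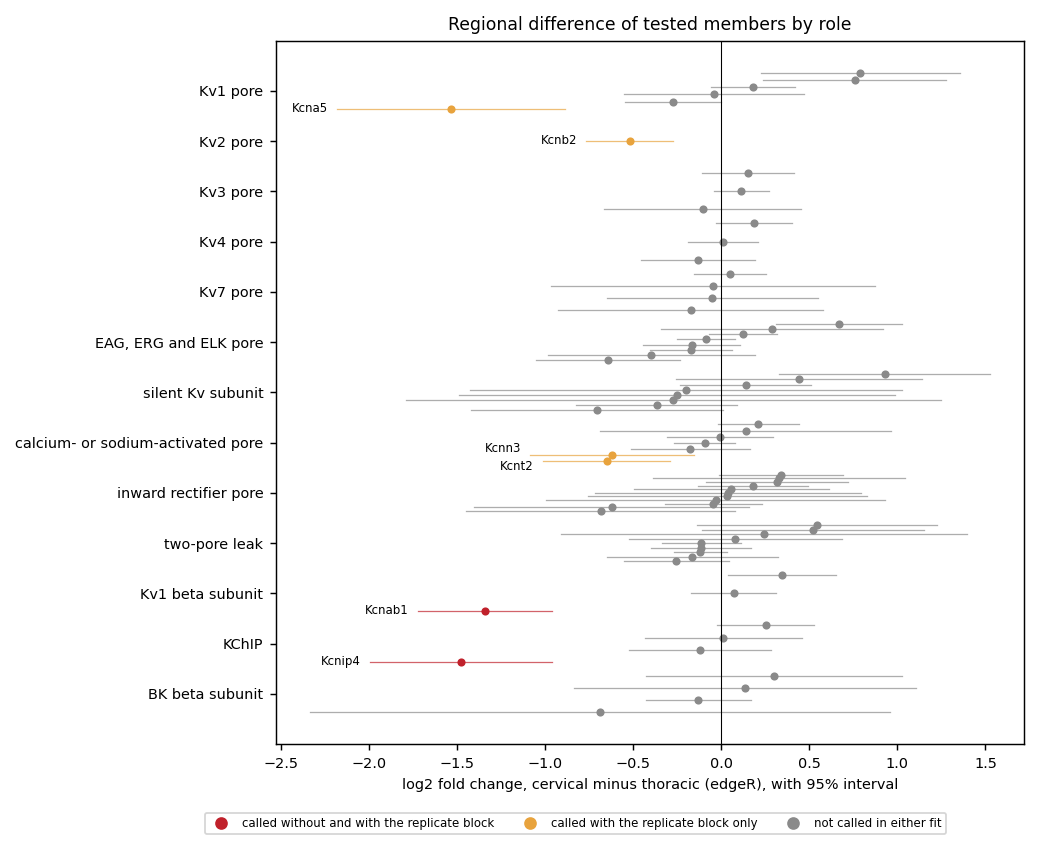
Log2 fold change (cervical minus thoracic, edgeR) of tested members with its 95% interval, by role. Points left of 0 are lower in cervical libraries. Kcnab1 and Kcnip4 (red) lie near -1.34 and -1.48, and the genes called with the replicate block only (orange) also lie left of 0.

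Kcnab1 encodes a cytoplasmic beta subunit that gives Kv1 channels rapid inactivation. It lies on chromosome 3 from 64856617 to 65285644 on the plus strand (mm39). Its level was 13.0, 9.42 and 9.67 CPM in cervical replicates 1 to 3, beside 23.2, 23.9 and 34.1 CPM in thoracic replicates 1 to 3. Every cervical library was below every thoracic library, and thoracic replicate 3 was the highest. Kcnab1 was thus 2.53-fold higher in the thoracic group (log2 fold change -1.34, SE 0.17, 95% interval -1.72 to -0.96, edgeR adjusted p = 0.0113, and 0.000498 with the replicate block). When each of the 6 libraries was omitted in turn, it lost its call without cervical replicate 3 only (edgeR adjusted p = 0.0667). The antisense gene A330015K06Rik shares 201 of its exonic bases and had 0.822 to 1.58 CPM in cervical and 1.20 to 2.86 CPM in thoracic libraries, so the 2 genes' reads cannot be told apart with certainty.

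Neither of the other beta subunit genes was called. Kcnab2, which binds and traffics Kv1 channels, stood at 24.0 ± 2.25 CPM in cervical libraries and 22.9 ± 2.34 CPM in thoracic ones (log2 fold change 0.07, 95% interval -0.17 to 0.31). Per length Kcnab2 was the more abundant gene, with a level of 3.45 CPM per kb in cervical and 3.28 CPM per kb in thoracic libraries, beside 0.956 and 2.42 CPM per kb for Kcnab1. Kcnab3 was higher in each cervical library than in any thoracic one but was not called (log2 fold change 0.34, 95% interval 0.04 to 0.65, edgeR adjusted p = 0.506).

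Kcnip4 encodes a KChIP, a calcium-binding protein that attaches to Kv4 pore subunits and slows their inactivation. It lies on chromosome 5 from 48546844 to 49682249 on the minus strand (mm39). Its level was low, at 2.60, 3.02 and 2.03 CPM in cervical replicates 1 to 3, beside 6.23, 5.77 and 9.42 CPM in thoracic replicates 1 to 3. The regions did not overlap, and thoracic replicate 3 was again the highest. Kcnip4 was 2.79-fold higher in the thoracic group (log2 fold change -1.48, SE 0.235, adjusted p by edgeR = 0.0249, with 0.00538 under the replicate block). It lost its call without cervical replicate 2 (adjusted p = 0.0577), cervical replicate 3 (0.119) or thoracic replicate 3 (0.0806).

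Kcnip4 shares 168 exonic bases with the antisense gene 5730480H06Rik, which had more reads and no matching difference. That gene stood at 10.8, 14.6 and 13.0 CPM in cervical replicates 1 to 3, beside 12.1, 11.7 and 12.3 CPM in thoracic replicates 1 to 3 (log2 fold change 0.09, edgeR adjusted p = 0.936). Kcnip1, the most abundant KChIP, stood at 33.1, 33.5 and 38.0 CPM in cervical replicates 1 to 3, beside 35.4, 27.0 and 25.3 CPM in thoracic replicates 1 to 3 (log2 fold change 0.25, edgeR adjusted p = 0.654). Its regions overlapped through thoracic replicate 1. The Kv4 pore genes that KChIPs bind were not called, with log2 fold changes of 0.19 for Kcnd2 (95% interval -0.03 to 0.40) and between -0.13 and 0.01 for Kcnd1 and Kcnd3.

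The annotated start regions of the called genes Kcnab1 and Kcnip4 are printed because these 2 members were called with and without the block. They are the RefSeq windows of build GRCm38.p6 from 250 bases before to 50 bases after each annotated start, 3 for Kcnab1 (chr3:64948962-64949261, chr3:65108764-65109063 and chr3:65187853-65188152, plus strand) and 2 for Kcnip4 (chr5:48599633-48599932 and chr5:49285610-49285909, minus strand). Reads were counted per gene, so the data do not say which start was used. Capitals mark matches to TGATNNAT, the composite site of Pbx and Hox proteins, or to TAATTA, a homeodomain core, searched on both strands.
Kcnab1 window 1: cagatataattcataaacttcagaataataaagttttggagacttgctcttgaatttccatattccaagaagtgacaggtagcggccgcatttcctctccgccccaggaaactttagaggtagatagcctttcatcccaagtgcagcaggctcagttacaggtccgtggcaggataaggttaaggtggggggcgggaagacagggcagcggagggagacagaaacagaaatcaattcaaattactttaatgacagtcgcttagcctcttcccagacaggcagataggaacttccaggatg
Kcnab1 window 2: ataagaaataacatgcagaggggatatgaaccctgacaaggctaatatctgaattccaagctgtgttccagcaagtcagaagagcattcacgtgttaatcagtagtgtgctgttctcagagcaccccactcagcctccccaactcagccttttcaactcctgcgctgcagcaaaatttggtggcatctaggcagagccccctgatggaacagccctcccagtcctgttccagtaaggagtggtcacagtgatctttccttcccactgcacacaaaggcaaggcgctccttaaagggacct
Kcnab1 window 3: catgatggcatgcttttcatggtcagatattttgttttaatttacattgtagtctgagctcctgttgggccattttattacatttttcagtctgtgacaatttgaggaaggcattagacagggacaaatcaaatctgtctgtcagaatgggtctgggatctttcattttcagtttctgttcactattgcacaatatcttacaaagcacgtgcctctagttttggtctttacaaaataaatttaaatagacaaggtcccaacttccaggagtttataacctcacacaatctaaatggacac
Kcnip4 window 1: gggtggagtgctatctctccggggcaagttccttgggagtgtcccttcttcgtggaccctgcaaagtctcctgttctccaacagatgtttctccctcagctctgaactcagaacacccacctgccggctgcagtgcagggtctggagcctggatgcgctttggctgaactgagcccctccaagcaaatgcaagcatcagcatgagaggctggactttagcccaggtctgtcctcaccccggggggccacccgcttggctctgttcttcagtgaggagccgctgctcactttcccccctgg
Kcnip4 window 2: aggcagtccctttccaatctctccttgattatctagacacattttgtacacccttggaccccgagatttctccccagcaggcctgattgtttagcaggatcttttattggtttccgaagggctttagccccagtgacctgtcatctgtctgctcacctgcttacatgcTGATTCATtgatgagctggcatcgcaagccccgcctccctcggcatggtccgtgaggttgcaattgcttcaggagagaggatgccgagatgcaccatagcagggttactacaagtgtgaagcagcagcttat

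The first Kcnip4 window has a GC content of 59.7% with 7 CG dinucleotides, and the third Kcnab1 window has 36.7% with 1 CG, against medians of 52.7% and 7 over all 32851 windows. TGATNNAT occurs once in these 5 windows, starting 82 bases before the second Kcnip4 start. It was found in 3 of the 92 windows that RefSeq lists for 67 of the members, and in 8.85% of all windows. TAATTA was found in none of the 92 member windows and in 5.29% of all windows. No match says only that these letters are not in these windows.

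Among Kv1 pore genes, which set action potential threshold and width, the 6 tested genes split in direction. Without the block, edgeR's test called none of them and DESeq2 called Kcna5, Kcna1 and Kcna4 (adjusted p = 0.00152, 0.0312 and 0.0401). Kcna5 was low, at 0.961, 0.734 and 0.908 CPM in cervical replicates 1 to 3, beside 3.10, 1.75 and 2.65 CPM in thoracic replicates 1 to 3. The regions did not overlap, and it was 2.89-fold higher in the thoracic group (log2 fold change -1.53, SE 0.29, adjusted p by edgeR = 0.0544, with 0.0138 under the replicate block). Kcna6, the most abundant Kv1 gene per kb, was not called (log2 fold change -0.27, edgeR adjusted p = 0.586), with overlap between regions.

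Kcna1 and Kcna4 were uneven among the cervical libraries. Kcna1 stood at 7.84, 17.1 and 15.1 CPM in cervical replicates 1 to 3, beside 7.84, 7.79 and 8.03 CPM in thoracic replicates 1 to 3. Cervical replicate 1 lay among the thoracic values and the other cervical libraries well above them. The log2 fold change was 0.76 (SE 0.23, adjusted p by edgeR = 0.304, with 0.0992 under the replicate block). Without cervical replicate 1 it was 1.03 with an edgeR adjusted p of 0.00930. Omitting any other library gave 0.536 to 0.77, with edgeR adjusted p of 0.495 to 0.701. Kcna4, a subunit with its own inactivation domain, showed a like arrangement at 7.66, 15.0 and 12.1 CPM in cervical replicates 1 to 3, beside 8.90, 5.77 and 5.31 CPM in thoracic replicates 1 to 3 (log2 fold change 0.79, edgeR adjusted p = 0.340). Its regions overlapped through cervical replicate 1 as well. Cervical replicate 1 had the highest motor neuron sum of the cervical libraries. Its sums of floor plate, preganglionic motor column, neural progenitor, mesenchyme, endothelium and pericyte genes were the lowest of them. The part of these cell types in the Kcna1 and Kcna4 values was not tested.

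Kcna5, Kcna1 and Kcna6 are neighbours on chromosome 6, where they run from 126509514 to 126512375, from 126617360 to 126623347 and from 126685292 to 126717637 (mm39, all on the minus strand). The 3 neighbours thus had log2 fold changes of -1.53, 0.76 and -0.27 along the cluster.

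**Figure D3:**
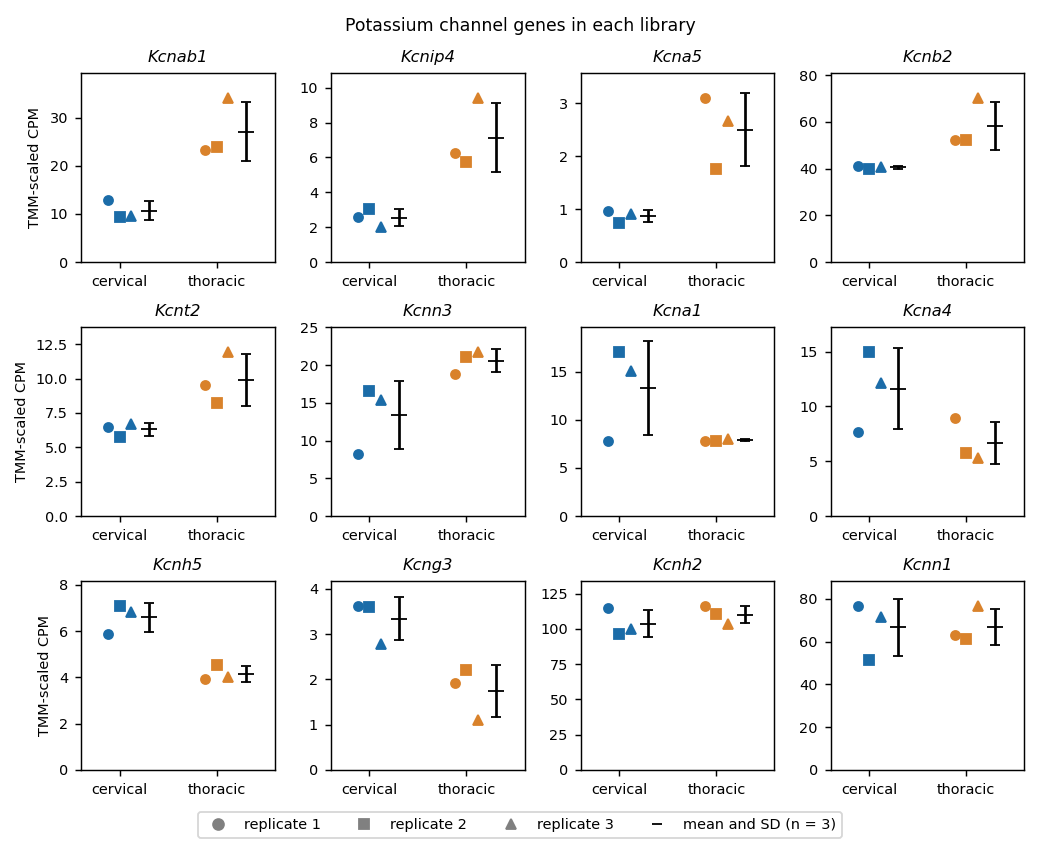
TMM-scaled CPM of 12 members in each library, with cervical libraries left of thoracic ones, marker shape giving the replicate number and bars the mean and SD over 3 libraries. The first 6 genes were called with the replicate block and do not overlap between regions. Kcna1 and Kcna4 show cervical replicate 1 within the thoracic range, which for Kcna4 extends up to thoracic replicate 1. Kcnh2 and Kcnn1 overlap.

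Kcnb2 encodes a pore subunit of Kv2 channels, which carry much of the delayed rectifier current and cluster on motor neuron somata. It stood at 41.2, 39.8 and 40.9 CPM in cervical replicates 1 to 3, beside 52.4, 52.2 and 70.3 CPM in thoracic replicates 1 to 3. The cervical values lay close together and thoracic replicate 3 stood above the others. The log2 fold change was -0.52 (SE 0.11, adjusted p by edgeR = 0.0878, with 0.00956 under the replicate block), and it was -0.36 without thoracic replicate 3. In edgeR's test without the block, Kcnb2 was not called when any of the 6 libraries was omitted, while DESeq2 called it over all 6 (adjusted p = 0.00113).

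Among the calcium- or sodium-activated channels, Kcnt2 and Kcnn3 were called by edgeR's test with the block and not without it. DESeq2, without a block, called Kcnt2 (adjusted p = 0.0163) and not Kcnn3 (0.0638). Kcnt2 encodes a sodium-activated channel and stood at 6.45, 5.78 and 6.70 CPM in cervical replicates 1 to 3, beside 9.56, 8.22 and 11.95 CPM in thoracic replicates 1 to 3 (log2 fold change -0.65, SE 0.16, adjusted p by edgeR = 0.160, with 0.0475 under the replicate block). Its regions did not overlap. Kcnn3 encodes an SK channel of slow motor neurons and dopamine neurons and stood at 8.18, 16.6 and 15.4 CPM in cervical replicates 1 to 3, beside 18.9, 21.1 and 21.8 CPM in thoracic replicates 1 to 3 (log2 fold change -0.62, SE 0.21, adjusted p by edgeR = 0.381, with 0.0324 under the replicate block). Without cervical replicate 1 the log2 fold change of Kcnn3 was -0.36. That library was the lowest for Kcnn3 and for the sum of 5 floor plate genes. The floor plate sums were 413, 865 and 771 CPM in cervical replicates 1 to 3, beside 807, 1033 and 1138 CPM in thoracic replicates 1 to 3. Spon1 and Ntn1 held 180 and 223 CPM of the 413 CPM in cervical replicate 1. Cervical replicate 1 was also the lowest library for the sums of preganglionic motor column, neural progenitor, mesenchyme, endothelium and pericyte genes. None of the 5 floor plate genes was called without the block, and all 5 were called higher in thoracic libraries with it. The part of these cell types in the Kcnn3 values was not tested. Kcnn1, the most abundant gene of this group per kb, and Kcnma1, the large-conductance calcium-activated channel, had log2 fold changes of -0.01 (95% interval -0.31 to 0.29) and -0.09.

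EAG, ERG and ELK channels held the largest share of the per-kb level of any role group, 18.0%. Kcnh2 differed little between regions, with a log2 fold change of -0.09 (95% interval -0.25 to 0.08). The EAG genes had log2 fold changes of opposite sign, and edgeR's test called neither, while DESeq2 called Kcnh5 (adjusted p = 0.0218). Kcnh5 stood at 5.89, 7.10 and 6.82 CPM in cervical replicates 1 to 3, beside 3.92, 4.54 and 4.01 CPM in thoracic replicates 1 to 3 (log2 fold change 0.67, SE 0.16, adjusted p by edgeR = 0.137, with 0.0716 under the replicate block). Kcnh1, singled out after its values were seen, stood at 2.79, 4.05 and 3.47 CPM in cervical replicates 1 to 3, beside 5.47, 5.31 and 5.34 CPM in thoracic replicates 1 to 3 (log2 fold change -0.64, edgeR adjusted p = 0.246, and 0.138 with the block). The regions overlapped for neither gene.

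Kcnq3, a Kv7 subunit of M channels, and Kcnc1 were not called. Kcnq3 had a log2 fold change of 0.05 (95% interval -0.16 to 0.26). Kcnc1 had one of 0.11 (95% interval -0.04 to 0.27). For both genes the intervals exclude a difference of 0.5 on the log2 scale in either direction, as they did for 24 of the 74 tested members.

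Silent Kv subunits were scarce, apart from Kcnf1, which stood at 14.5 ± 3.51 CPM in cervical libraries and 13.2 ± 1.64 CPM in thoracic ones. Kcng3, which modifies Kv2 channels, had the highest log2 fold change of the members with a mean of at least 1 CPM. It stood at 3.63, 3.61 and 2.79 CPM in cervical replicates 1 to 3, beside 1.92, 2.21 and 1.11 CPM in thoracic replicates 1 to 3 (log2 fold change 0.93, SE 0.27, adjusted p by edgeR = 0.261, with 0.0648 under the replicate block). Its regions did not overlap.

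Inward rectifiers and two-pore leak channels had no called member. Of the 11 inward rectifier genes tested, 7 lay above 0 and 4 below, with log2 fold changes from -0.685 to 0.34. Kcnj11, the pore of ATP-sensitive channels, had 10.8 ± 0.744 CPM in cervical libraries and 11.2 ± 1.01 CPM in thoracic ones. Kcnj2, a classical inward rectifier, had the smallest p of the group (log2 fold change 0.34, edgeR adjusted p = 0.614, and 0.14 on the log2 scale without cervical replicate 1), and Kcnj12, also of that class, had the lowest log2 fold change at about 1 CPM (-0.685, edgeR adjusted p = 0.667, and -1.09 to -0.41 when 1 library was omitted). Of the 9 two-pore leak genes tested, 4 lay above 0 and 5 below. Kcnk10 had a log2 fold change of -0.12 (95% interval -0.27 to 0.03), Kcnk3, an acid-sensitive leak channel, one of -0.26 (edgeR adjusted p = 0.696), and Kcnk4, a mechanosensitive one, 0.54 at about 1 CPM (edgeR adjusted p = 0.730). Kcnk4 shares 587 exonic bases with Catsperz on the same strand and is uncertain to that extent. Kcnmb4, the neuronal beta subunit of large-conductance channels, had a log2 fold change of -0.13 (95% interval -0.43 to 0.17).

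Regions were also compared by overlap alone. Without overlap between the 3 cervical and 3 thoracic values, 5 tested members (6.76%) were higher in cervical libraries, where 6.25% of all tested genes were. In the other direction 12 tested members (16.2%) were higher in thoracic libraries, where 7.5% of all tested genes were. The 12 included the 7 genes called with the block. The summed level of all 92 members was 1796, 1852 and 1862 CPM in cervical replicates 1 to 3, beside 1886, 1826 and 1947 CPM in thoracic replicates 1 to 3, with overlap.

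**Figure D4:**
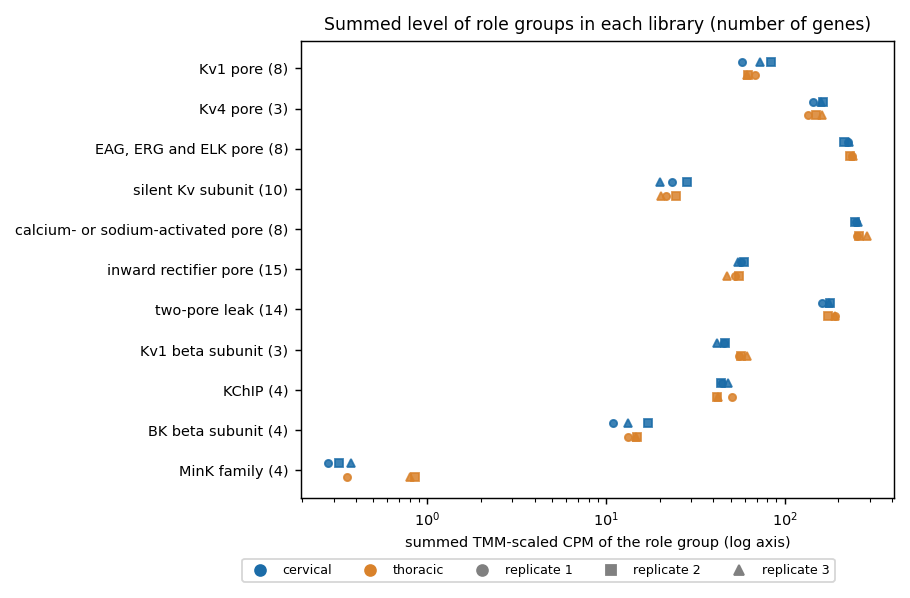
Summed TMM-scaled CPM of role groups (log axis) in each library, with the number of genes in parentheses, cervical libraries in blue above thoracic ones in orange, and marker shape giving the replicate number. The Kv1 beta group and the EAG, ERG and ELK group lie further right in all 3 thoracic libraries. Of the 3 Kv1 beta genes, 2 had log2 fold changes above 0 and 1 below, and of the 8 EAG, ERG and ELK genes 3 lay above and 5 below. The MinK group stays below 1 CPM.

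Thoracic replicate 3 held the lowest of the 6 values for 25 of the 74 tested members (33.8%) and the highest for 17 (23.0%), against 21.7% and 20.8% of all tested genes. It was the highest library for Kcnab1, Kcnip4, Kcnb2, Kcnt2 and Kcnn3. Of the preganglionic motor column genes, 3 of 4 (Nos1, Mme and Zeb2) were called higher in thoracic libraries. That list summed to 148, 152 and 166 CPM in cervical replicates 1 to 3, beside 231, 212.2 and 313 CPM in thoracic replicates 1 to 3.

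Markers of several interneuron classes also differed between the regions. V3 interneuron genes summed to 54.1 to 71.2 CPM in cervical and 95.3 to 117.8 CPM in thoracic libraries, with 2 of 3 tested genes called higher in thoracic libraries and Nkx2-9 at or near 0. Genes of neurons contacting the cerebrospinal fluid summed to 31.0 to 38.1 CPM in cervical and 46.8 to 60.7 CPM in thoracic libraries, with 2 of 4 tested genes called higher in thoracic libraries. Inhibitory interneuron genes had 3 of 8 (Pax2, Slc6a5 and Lhx1) called higher in cervical libraries. The part of these cell types in the differences of Kcnab1, Kcnip4 and the other members was not tested.

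Potassium channel partners outside the symbol rule were read from a list of 28 genes, of which 27 were tested. None was called by edgeR's quasi-likelihood test, and 4 had an unadjusted p below 0.05, as did 8.47% of all tested genes. Limma-voom called 0 partners and 0.487% of all tested genes, and DESeq2 called 2 partners and 1.86% of all tested genes. With the replicate block, Abcc9 and Epb41l3 were called higher in thoracic libraries, where 1.39% of all tested genes were. Epb41l3, a membrane skeleton protein of the axonal compartments where Kv1 channels cluster, stood at 63.6, 76.3 and 75.7 CPM in cervical replicates 1 to 3, beside 92.1, 85.5 and 112.8 CPM in thoracic replicates 1 to 3 (log2 fold change -0.43, edgeR adjusted p = 0.150, and 0.0145 with the block). Its regions did not overlap.

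Abcc9, the sulfonylurea receptor that joins Kcnj8 in vascular ATP-sensitive channels, stood at 4.15, 6.87 and 6.73 CPM in cervical replicates 1 to 3, beside 7.75, 13.0 and 9.69 CPM in thoracic replicates 1 to 3 (log2 fold change -0.77, edgeR adjusted p = 0.279, and 0.0170 with the block). Kcnj8 itself, singled out after its values were seen, was not called (log2 fold change -0.62, edgeR adjusted p = 0.728, and -0.36 on the log2 scale without thoracic replicate 2). Pericytes express both genes. The 5 pericyte markers summed to 104, 148 and 118 CPM in cervical replicates 1 to 3. In thoracic replicates 1 to 3 they summed to 139, 186 and 138 CPM. Most of each sum was Notch3, at 90.61, 123.8 and 87.15 CPM in cervical replicates 1 to 3. In thoracic replicates 1 to 3 Notch3 stood at 113.8, 147.4 and 103.3 CPM. With the block, 2 of 5 (Notch3 and Cspg4) were called higher in thoracic libraries. The part of pericytes in the Abcc9 values was not tested.

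The remaining named partners were not called in either fit. Ank3, the ankyrin that anchors Kv7 channels at the axon initial segment, stood at 2511 ± 111 CPM in cervical libraries and 2252 ± 199 CPM in thoracic ones (a log2 fold change of 0.16 with edgeR adjusted p = 0.622). Dpp6, which accompanies Kv4 channels, had a log2 fold change of -0.21 (SE 0.06, edgeR adjusted p = 0.188) with no overlap between regions. Dlg4 had a log2 fold change of -0.04, Vapa one of 0.02, Hcn4, a pacemaker channel relative, one of -0.13, Abcc8 one of -0.27, and Lrrc55, a gamma subunit of large-conductance channels, one of -0.21.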

How the data were processed

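Counts of reads per gene were deposited by the authors for 6 libraries. Per the labels' protocols, RNA came from a PicoPure isolation, and 10 to 20 ng of it went into a stranded kit with 15 amplification cycles. The submitters' processing notes name FastQC 0.11.9, STAR 2.7.5b, featureCounts 2.0.1 and the build mm39. Not given in the sources used here are the annotation release and the strand setting. CPM per kb uses the exonic length per the file headers.

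The low-count filter filterByExpr (minimum count of 10) in edgeR 4.0.16 under R 4.3.3 kept 21972 genes, and the genes removed held 0.117% of counts. TMM factors were 0.989 to 1.01. The main test was edgeR's quasi-likelihood test of region, two-sided, with Benjamini-Hochberg adjustment over the genes kept. Fold changes carry a prior count of 0.125, and their SE is their size over the root of the F statistic. DESeq2 1.42.0, limma-voom (limma 3.58.1), 2 other scalings, 2 other filters, a replicate block and the omission of each library served as alternatives. Simulated counts of this design gave calls for 32.8% of genes with a 1.5-fold change, 60.2% with a 2-fold change and 87.4% with a 4-fold change.

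Sample titles give the replicate numbers. Same-numbered libraries of the regions had correlated deviations (0.163, 0.160 and 0.195), and differently numbered ones had correlations of -0.179 to 0.00834. With 3 libraries per region, these values do not settle whether the numbers pair the libraries. The main test leaves the number out, and the fit with the block is given beside it as an alternative. Within a region, the chi-square per degree of freedom between libraries was 10.1 to 16.2, above counting noise. Spread above counting noise does not by itself show that the libraries are independent samples. Each was treated as a sample, and the series text calls the replicates biological. Limits from a count of 0 cover counting error only.

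The members and lists were chosen with earlier results of these data known. Named members are those called with or without the block, the most abundant per kb and the smallest p of each role group, and the 5 largest fold changes in each direction at a mean of at least 1 CPM. Not reported here are some members that meet these terms. Named partners are the called ones and the most abundant of each list. Kcnab3, Kcnd1, Kcnd3, Kcnh1, Kcnj8, Kcnma1 and Kcnq1 fall outside this rule and were chosen after their values were seen. The supplied reference is of another build, and its coordinates are given only with the RefSeq start windows.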

Additional observations from a re-analysis of the deposited data

How the results depend on the processing

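The number of members called was 2 with library totals, median-of-ratios scaling, limma-voom and a mean CPM of at least 1. It was 9 with DESeq2, 11 with no filter on low counts and 7 with the replicate block, and 0 to 3 when 1 library was left out (0 without cervical replicate 3, 1 without cervical replicate 2 or thoracic replicate 3, 3 without cervical replicate 1). The number of partner genes called was 2 with DESeq2, 3 with no filter on low counts and 2 with the replicate block, and 0 whichever library was left out. Over all genes, 119 were called, against 408 with DESeq2, 747 with no filter on low counts and 432 with the replicate block, and 9 to 159 when 1 library was left out. The cause was not tested. Leaving out 1 library changed the sign of the log2 fold change of 8 uncalled genes, over ranges of -0.116 to 0.021 for Kcnj11, -0.122 to 0.146 for Kcnn1, -0.078 to 0.261 for Kcnf1, -0.011 to 0.122 for Kcnab2, -0.221 to 0.001 for Kcnd1, -0.049 to 0.100 for Kcnd3, -0.165 to 0.003 for Kcnma1 and -0.016 to 0.045 for Vapa. The log2 fold changes of the other members and partners named, apart from Kcnq1, which was not examined, kept their sign under every alternative. The replicate block changed no call of a named gene beyond those given with the results. The regional difference in the summed CPM of each role group moved by less than the SD between libraries with either other scaling. With TMM factors of 0.989 to 1.01, little movement from library totals was possible, so that comparison says little. At these depths genes near 1 CPM, such as Kcna5, Kcnj12 and Kcnk4, have wide intervals.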
